A study of Homo sapiens with 32 samples.

Results

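TCam-2 is a cell line derived from a human seminoma, a germ cell tumour of the testis, and it was compared here after exposure to osteoprotegerin (OPG) and after vehicle. The comparison took 8 of the 32 libraries of the study, the 4 labelled OPG and the 4 labelled vehicle, chosen by their labels alone, and all genes of these libraries were examined. The other libraries came from TCam-2 given RANKL or denosumab and from NTera2, an embryonal carcinoma-derived line, given the same agents. The OPG cells received 1 µg/ml OPG for 48 h and the vehicle cells D-PBS for 48 h, both in medium with serum in 6-well plates. Replicates 1 to 4 were 4 independent experiments at passages 118, 120, 121 and 122, and an OPG and a vehicle library with the same number shared the passage. The denosumab libraries are named so by their titles and treatment labels, but the treatment protocol lists RANKL a second time in its place, so the agent rests on those labels and its dose is not known here. A single cell line without stroma, bone or immune cells limits what these groups can model.

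OPG, encoded by TNFRSF11B, is a secreted decoy receptor. It binds RANKL (TNFSF11) and keeps it from its receptor RANK (TNFRSF11A), which signals through TRAF adaptors to NF-kB, MAP kinases and NFATC1 and is best known for driving osteoclast formation. OPG also binds TRAIL (TNFSF10), a ligand of the death receptors TNFRSF10A and TNFRSF10B, and it attaches to heparan sulfate proteoglycans. Denosumab is an antibody to RANKL that is not a receptor for TRAIL.

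The 8 libraries held between 10920208 and 20257935 counts each, with RNA integrity numbers from 9.3 to 9.6. Of the TCam-2 RANKL libraries, replicates 2 and 4 had low numbers of 6.1 and 3.7. The RANKL group was kept out of the main comparison for that reason. The seminoma label held at the level of markers. In vehicle and OPG libraries together, TFAP2C stood between 1320 and 1600 CPM, which are counts scaled to library size, POU5F1 between 1830 and 2360, NANOG between 489 and 629 and SOX17 between 118 and 190. SOX2, which seminoma cells lack, stood between 0.691 and 4.76 CPM. Summed immune cell markers reached 2.11 to 2.96 CPM in vehicle and 2.36 to 4.19 CPM in OPG libraries, with the pan-leukocyte gene PTPRC at a mean of 0.0102 CPM and CD3E at 0. Summed markers of Sertoli, Leydig and endothelial cells ranged from 23.6 to 27.7 CPM in vehicle and from 23.2 to 26.8 CPM in OPG. Fibroblast markers summed to 304 to 322 CPM in vehicle and 261 to 334 CPM in OPG, nearly all of it from COL1A2 (a mean of 276 CPM), while DCN stood at 0.00975 CPM. Embryonal carcinoma markers summed to 118 to 131 CPM in vehicle and 121 to 131 CPM in OPG. Of the 16 TCam-2 libraries, vehicle 4 had the lowest median correlation with the others (0.9806), followed by vehicle 2 (0.98596) and, close to it, OPG 2 (0.98687). Vehicle 2 and 4 also had the lowest levels of long genes, as shown further on, and were left out together in a fit without the passage block, chosen after seeing the data. Of 63 named, list or related genes at an unadjusted p under 0.05, 26 moved by over 1.5 times in that fit and 3 of these turned sign, and the values of those described are given beside them.

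No gene passed the test for a difference between OPG and vehicle in TCam-2. Of 16525 genes tested with edgeR's quasi-likelihood test, with the shared passage as a block and Benjamini-Hochberg adjustment, 0 reached an adjusted p under 0.05 (0% called), and the smallest adjusted p was 0.799. DESeq2 with the same design also called 0. At an unadjusted p under 0.05 there were 942 genes (5.70%), of which 440 were higher with OPG (2.66%) and 502 lower (3.04%). The count depended on the filter on low counts. With no such filter 23 of 31659 genes were called (0.0726%), 22 of them lower and 1 higher (OSMR), and all 23 were among the 16525 genes of the main test, where they did not pass. The unadjusted p of all 23 was smaller without the filter. For SNHG25 it went from 0.000949 to 5.33e-11 in edgeR's quasi-likelihood test, with log2 fold changes of -1.132 and -1.13. JUND went from 0.0102 to 1.96e-06 in the same test, with -0.5675 and -0.565. Calls without the filter thus differ from the main test in p and hardly in the size of the difference for these 2 genes. The cause was not tested. The 9407 genes at or above 10 CPM had log2 fold changes with a median standard error (SE) of 0.104, and differences several times their SE, such as that of OSMR below, did not pass after adjustment over all genes. In 99% of these abundant genes the log2 difference was at most 0.425 in either direction, 40 exceeded 0.5 and 1 exceeded 1. The genes below are therefore described by their values against vehicle, none of them as a passed test with the filter.

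Among the genes with the smallest unadjusted p, OSMR, the receptor subunit for oncostatin M, came first of those higher with OPG. Its 4 vehicle libraries read 40.6, 27.1, 35.9 and 31.9 CPM, and its 4 OPG libraries 56.4, 46.1, 49.8 and 43.2 CPM in the same order of passage. All OPG libraries lay above all vehicle libraries, and 268 genes (1.62%) did so in that direction, while 1506 (9.11%) were higher and 959 (5.80%) lower in 4 of 4 pairs. The log2 fold change was 0.51 (SE 0.0993, 95% interval 0.30 to 0.72, unadjusted p 0.000141, adjusted p 0.799 in edgeR's quasi-likelihood test). With no filter on low counts OSMR was called (adjusted p 0.00927 in edgeR's quasi-likelihood test). Leaving out vehicle replicates 2 and 4 brought it to 0.35, and leaving out each passage in turn kept it between 0.45 and 0.54. The TCam-2 denosumab libraries averaged 37.4 CPM and the RANKL libraries, replicates 2 and 4 of which had low RNA integrity, 40.0 CPM, nearer to vehicle than to OPG.

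OSMR pairs with IL6ST (gp130), one of whose other partners, LIFR, serves leukaemia inhibitory factor, and both signal through STAT3 with SOCS3 as feedback inhibitor. These partners were looked at after OSMR was seen. SOCS3 read 69.9, 91.1, 77.7 and 98.5 CPM in vehicle and 89.2, 101, 93.7 and 120 CPM in OPG, higher in 4 of 4 pairs with overlapping groups (log2 fold change 0.24, and 0.46 without vehicle 2 and 4). STAT3 stood at 78.9 to 86.1 CPM in vehicle and 89.1 to 101 CPM in OPG, without overlap and with a log2 fold change of 0.17 (unadjusted p 0.0483). IL6ST had a log2 fold change of 0.34 (unadjusted p 0.0112), with vehicle 4 at 54.6 CPM well under the other vehicle libraries, and was at -0.0018 without vehicle 2 and 4. LIFR showed -0.09 (unadjusted p 0.5), and oncostatin M itself (OSM) had 0 counts in the 8 libraries. With denosumab and RANKL, STAT3 averaged 92 and 92.3 CPM, nearer to OPG (94.7) than to vehicle (82.8). IL6ST averaged 111 and 112 CPM there, also nearer to OPG (115) than to vehicle (92.5). SOCS3 averaged 85.8 and 86.6 CPM, nearer to vehicle (84.3) than to OPG (101).

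The OSMR promoter is shown because this gene carried the smallest p, and those of UTF1, a chromatin factor of pluripotent cells, and TCIRG1, a proton pump subunit of osteoclasts, because they had the smallest p within the pluripotency and the osteoclast list. Each line holds the 250 bases before the gene's start in RefSeq (GRCh38.p14), on the gene's plus strand, with matches to the searched motifs in capitals. The regions are chr5:38845762-38846011, chr10:133229967-133230216 and chr11:68038775-68039024.
OSMR: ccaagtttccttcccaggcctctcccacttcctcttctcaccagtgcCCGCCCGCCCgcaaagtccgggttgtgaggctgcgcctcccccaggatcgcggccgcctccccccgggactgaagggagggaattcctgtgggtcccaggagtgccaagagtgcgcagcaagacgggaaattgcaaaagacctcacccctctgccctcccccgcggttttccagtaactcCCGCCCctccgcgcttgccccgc
UTF1: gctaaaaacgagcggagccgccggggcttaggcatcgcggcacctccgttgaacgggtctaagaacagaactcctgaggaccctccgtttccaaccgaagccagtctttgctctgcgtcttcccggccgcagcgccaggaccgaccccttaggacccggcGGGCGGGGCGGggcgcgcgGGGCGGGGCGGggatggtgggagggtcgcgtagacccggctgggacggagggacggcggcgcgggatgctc
TCIRG1: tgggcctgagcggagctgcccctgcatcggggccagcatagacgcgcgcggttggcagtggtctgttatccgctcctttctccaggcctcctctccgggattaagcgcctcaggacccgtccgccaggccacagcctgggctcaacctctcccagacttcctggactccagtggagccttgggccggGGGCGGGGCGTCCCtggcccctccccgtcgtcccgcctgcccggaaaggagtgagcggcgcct

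Both strands were searched for the GC box (GGGCGG), the TATA box (TATAAA), the AP-1 site (TGAGTCA or TGACTCA), the STAT-type site (TTCNNNGAA) and the kappa-B site. The OSMR window held the GC box at 3 places, 2 of them overlapping, the UTF1 window at 4, and the TCIRG1 window at 1, where it overlapped a kappa-B match. Over 35116 promoter windows of the same length, the GC box was present in 42.6%, the kappa-B site in 9.96%, the TATA box in 10.7%, the STAT-type site in 6.57% and the AP-1 site in 4.2%. The letters of the STAT-type, TATA and AP-1 sites were not in these 3 windows. A match describes letters and shows no binding.

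Other genes high on the list belonged to no single group. LUZP1, a leucine zipper protein of the actin cytoskeleton and primary cilium, read 100, 90.9, 113 and 80 CPM in vehicle and 117, 131, 127 and 117 CPM in OPG. The groups did not overlap, and the log2 fold change was 0.34 (SE 0.0861, unadjusted p 0.00129), or 0.21 without vehicle 2 and 4. PODXL, a sialomucin abundant on pluripotent and seminoma cells, stood at 910 to 1010 CPM in vehicle and 994 to 1180 CPM in OPG, with 0.21 in either set of libraries. Others chosen by the same rule were MSANTD7, LINC02575, DEPP1, AK4, LRRFIP1 and TAOK3, with log2 fold changes from 0.26 (AK4) to 0.48 (TAOK3). AK4, an adenylate kinase of mitochondria, stood at 0.015 without vehicle 2 and 4, while TAOK3, a kinase of the stress-activated MAP kinase pathway, stood at 0.69. The largest positive log2 fold changes at 5 CPM or more were 0.73 for DTX3L, 0.66 for ZNF492 and 0.63 for NEB, each with overlapping groups. Without vehicle 2 and 4 these were 0.55, 0.39 and 0.28.

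Processed pseudogenes made up much of the lower end. RPS15P4, a ribosomal protein pseudogene, read 27.1, 34.8, 26.6 and 30.7 CPM in vehicle and 17.2, 12.6, 21.4 and 18 CPM in OPG. Every OPG library lay under every vehicle library (1.29% of genes did so), with a log2 fold change of -0.82 (SE 0.164, unadjusted p 0.000193, adjusted p 0.799 in edgeR's quasi-likelihood test). RPL4P4 (-0.63), RPL7P9 (-0.88), EEF1A1P5 (-0.45), RPS27AP16 (-0.57) and TMSB4XP4 (-1.04) were of the same kind, and RPS27AP16 was at -0.25 without vehicle 2 and 4. With no filter on low counts all 6 were called lower, with adjusted p from 2.04e-05 for RPS15P4 to 0.0292 for RPS27AP16 in edgeR's quasi-likelihood test. Such copies share reads with their parent genes and with each other, so their counts are uncertain. RN7SL1, the signal recognition particle RNA, and SNHG25, a small nucleolar RNA host transcript, had log2 fold changes of -1.31 and -1.13. RN7SL1 read 6.63, 14.9, 9.8 and 3.95 CPM in vehicle and 4.16, 3.39, 3.19 and 2.51 CPM in OPG, and SNHG25 reached 39.4 CPM in vehicle 2 alone. Without vehicle 2 and 4, SNHG25 stood at -0.58 and RN7SL1 at -1.32. SNHG25 was called lower when passage 121 was left out (adjusted p 0.0287 in edgeR's quasi-likelihood test) and RN7SL1 was not, while both were called lower with no filter on low counts (1.69e-06 and 0.000474). RN7SL1 is a polymerase III transcript rather than a typical mRNA, and the TCam-2 denosumab libraries (3.53 and 11 CPM) lay near OPG for both.

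HDAC5, a class IIa histone deacetylase, was among the 10 lower genes. Its vehicle libraries read 17.2, 21.1, 18 and 17.6 CPM and its OPG libraries 14.3, 9.82, 13.3 and 11.8 CPM. The groups did not overlap, the log2 fold change was -0.61 (SE 0.16, unadjusted p 0.00178), and it was -0.52 without vehicle 2 and 4. NDUFA13, a subunit of respiratory complex I, read 29.1, 34.7, 27.4 and 48.6 CPM in vehicle and 24.8, 19.6, 24.4 and 24 CPM in OPG. Its log2 fold change of -0.59 was -0.28 without vehicle 2 and 4, and vehicle 4 was the highest library. With denosumab and RANKL, NDUFA13 averaged 26.5 and 24.9 CPM, nearer to OPG (23.2) than to vehicle (34.9). HDAC5 averaged 15.6 and 14 CPM there, between vehicle (18.5) and OPG (12.3). NDUFA13 was called lower with no filter on low counts (adjusted p 0.00625 in edgeR's quasi-likelihood test) and HDAC5 was not (0.082). MT-RNR1, the small mitochondrial ribosomal RNA, differed by -0.35.

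**Figure D1:**
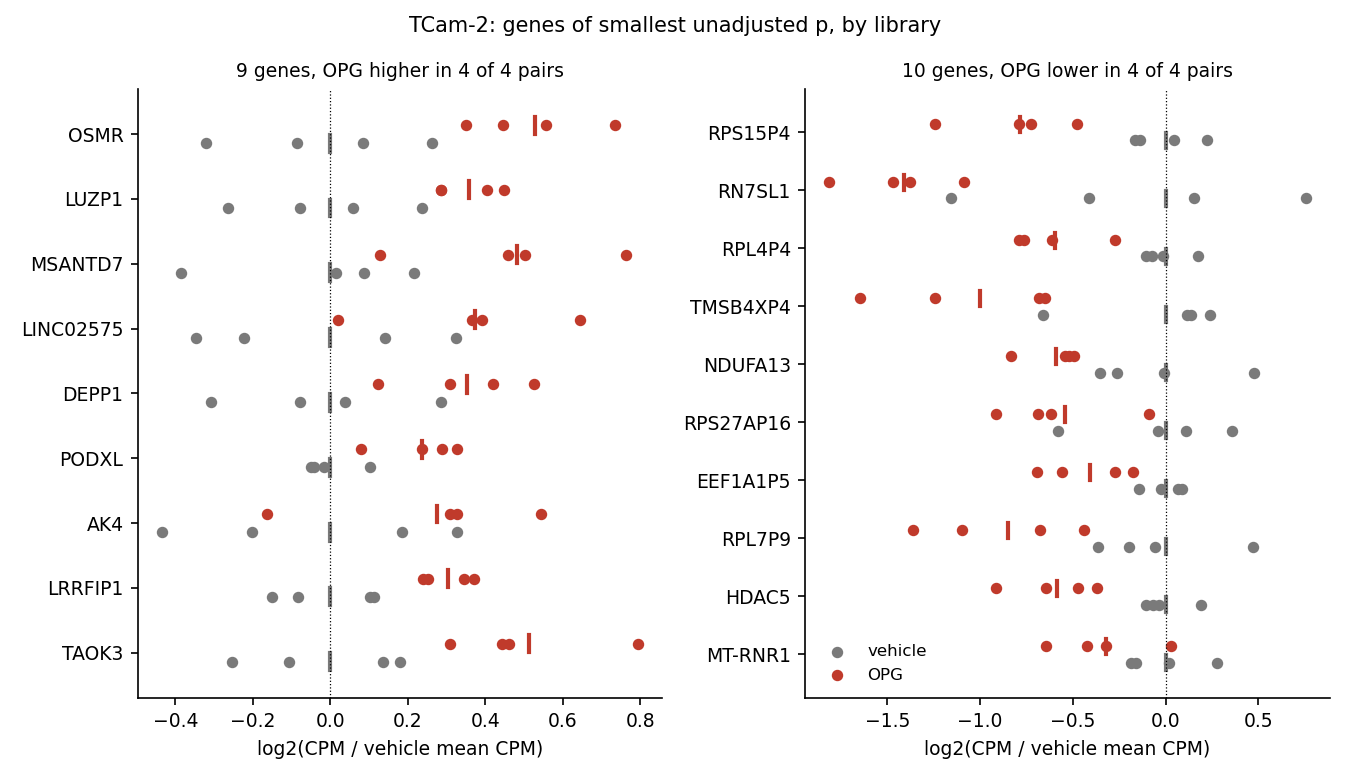
Values of genes of smallest unadjusted p, 9 higher and 10 lower, as log2 of CPM over the vehicle mean CPM (x axis), with 1 point per library, grey for vehicle and red for OPG, and a bar at the log2 of each group's mean. OSMR, LUZP1, LRRFIP1 and TAOK3 at the left and RPS15P4, RPL4P4, NDUFA13, EEF1A1P5, RPL7P9 and HDAC5 at the right have groups that do not overlap.

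The ligands that OPG binds were almost absent from TCam-2. TNFSF11, encoding RANKL, had 6 counts over the 4 vehicle libraries and 3 over the 4 OPG libraries, too few to test. TNFSF10, encoding TRAIL, read 0.39, 0, 0 and 0 CPM in vehicle and 0.163, 0, 0.0912 and 0 CPM in OPG. TNFRSF11B, encoding OPG itself, had 0 counts in all 8 libraries, and a count of 0 allows up to 3 counts in each group. The added OPG was protein, so its transcript is no check of the treatment.

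RANK was expressed at a low level. TNFRSF11A read 2.73, 0.733, 2.12 and 3.09 CPM in vehicle and 1.88, 1.11, 2.19 and 1.46 CPM in OPG, and the groups overlapped, with 2 pairs higher and 2 lower. The log2 fold change was -0.33 (95% interval -1.17 to 0.50, unadjusted p 0.408), so a fall by over a log2 unit lay within the interval, and it was -0.56 without vehicle 2 and 4. Per kilobase of gene length, RANK stood at 0.241 CPM in vehicle.

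The TRAIL receptors were expressed, with values higher for some and lower for others. TNFRSF10D, a decoy receptor without a working death domain, read 40.7, 41.3, 40.4 and 37.8 CPM in vehicle and 46.4, 48.2, 49.1 and 42.1 CPM in OPG. No OPG library overlapped the vehicle range, and the log2 fold change was 0.19 (SE 0.0944, unadjusted p 0.0661). TNFRSF10A, a death receptor, read 17.2, 15.6, 12.3 and 14.8 CPM in vehicle and 14.5, 11.8, 12 and 10.3 CPM in OPG, lower in 4 of 4 pairs with overlapping groups (log2 fold change -0.33, unadjusted p 0.0436). TNFRSF10B, the other death receptor and the most abundant of the 4, stood at 60.4 to 72.6 CPM in vehicle and 60.6 to 81.6 CPM in OPG (0.09), and the decoy TNFRSF10C at 16.8 to 21 and 12.5 to 18.8 CPM (-0.24). Further down, CASP10 showed 0.24 (unadjusted p 0.0419) and CFLAR, the caspase-8 inhibitor, 0.12. Of 11 genes of death receptor signalling 1 was higher and 0 lower at an unadjusted p under 0.05, beside 2.66% and 3.04% of all genes.

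**Figure D2:**
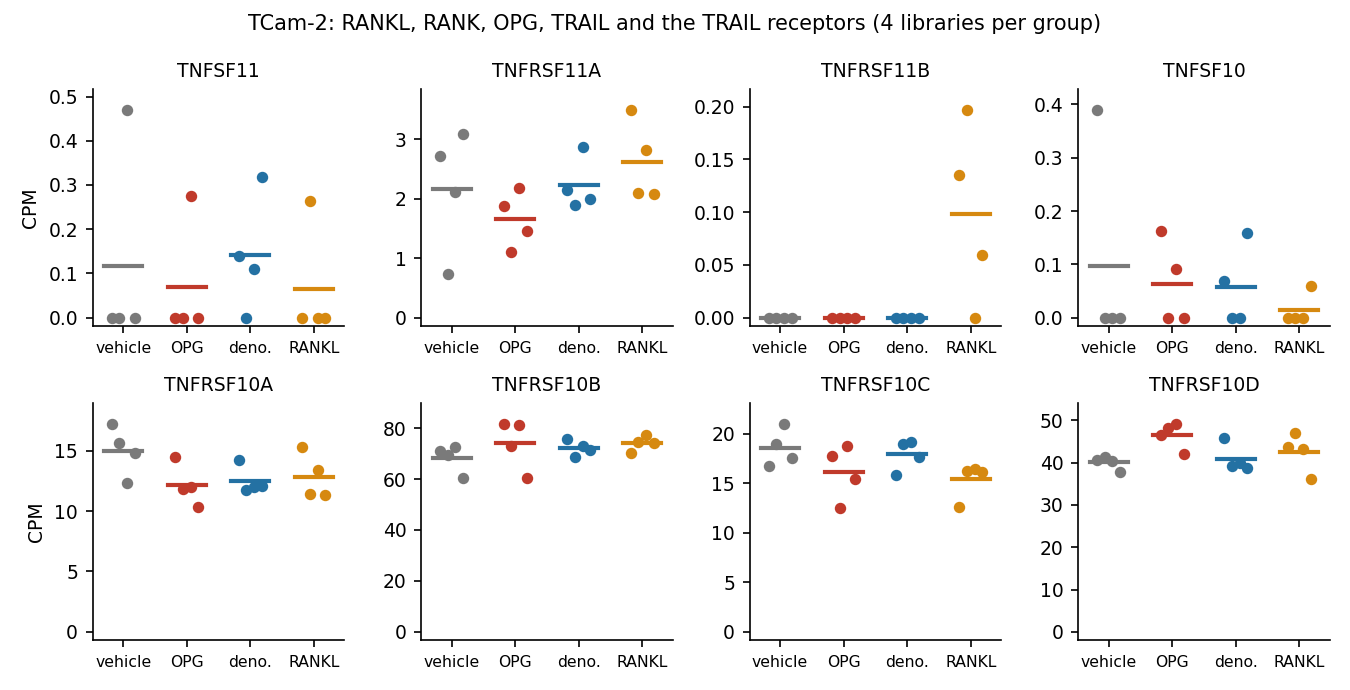
CPM (y axis, from 0, scaled per gene) of TNFSF11, TNFRSF11A, TNFRSF11B, TNFSF10 and the TRAIL receptors TNFRSF10A to TNFRSF10D in the 4 TCam-2 groups, with 1 point per library and a bar at the mean of 4. TNFRSF10D is the only gene whose OPG points all lie above the vehicle points, and TNFRSF11B has counts in RANKL libraries alone.

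Signalling genes downstream of RANK were present and gave few differences. Of 16 adaptors and kinases 0 reached an unadjusted p under 0.05 in either direction, with a median log2 fold change of -0.014, beside -0.00042 over all genes tested. TRAF6, the main RANK adaptor, stood at 15.6 to 18.5 CPM in vehicle and 19.3 to 22.9 CPM in OPG, without overlap (0.26, unadjusted p 0.0692). Of 15 tested NF-kB subunits and targets 2 were higher and 0 lower, against 2.66% and 3.04% of all genes, with a median of -0.0062. The pair was BCL3, an atypical IkB protein, at 4.74 to 6.24 CPM in vehicle and 6.17 to 10.6 CPM in OPG (0.50), and TNFAIP2, a TNF-induced gene, at 1.88 to 3.01 and 2.19 to 4.56 CPM (0.67). NFKBIA, the classic feedback inhibitor, showed -0.14 (unadjusted p 0.166).

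Of 9 tested osteoclast genes downstream of RANK, 0 were higher and 1 lower at that threshold, beside 2.66% and 3.04% of all genes, and the median was -0.17. That gene was TCIRG1, which read 33.7, 27.6, 27 and 38.5 CPM in vehicle and 27.2, 16.7, 25.3 and 24.5 CPM in OPG. It was lower in 4 of 4 pairs with groups that overlapped slightly (log2 fold change -0.47, SE 0.129, unadjusted p 0.0028), and -0.37 without vehicle 2 and 4. Its partner in acid secretion CLCN7 showed -0.20 (unadjusted p 0.0739) and the phosphatase ACP5 -0.52 (unadjusted p 0.156) at 3.51 CPM or less. NFATC1, the transcription factor at the end of the RANK cascade, stood at a mean of 16.4 CPM with 0.0073. Of 12 heparan sulfate genes 1 was lower, GPC1 (-0.29, and -0.086 without vehicle 2 and 4), and the median was -0.018.

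Pluripotency genes held a single member past an unadjusted p of 0.05, at a low level. Among 13 tested members 0 were higher and 1 lower at an unadjusted p under 0.05, beside 2.66% and 3.04% of all genes, and the median was 0.077. UTF1 read 12.5, 15.1, 10.4 and 15.3 CPM in vehicle and 7.09, 4.77, 12.1 and 5.96 CPM in OPG. In 3 of 4 pairs OPG was lower, passage 121 being the exception, and the log2 fold change was -0.92 (SE 0.253, unadjusted p 0.00261). UTF1 was called lower with no filter on low counts (adjusted p 0.00399 in edgeR's quasi-likelihood test). The TCam-2 RANKL libraries averaged 8.19 CPM, near OPG (7.49), and the denosumab libraries 13.2 CPM, near vehicle (13.3). POU5F1 (-0.023) and NANOG (-0.034) showed little difference, while LIN28A (0.12) and SALL4 (0.13) had unadjusted p of 0.0832 and 0.102.

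Germ cell genes gave 1 of 14 higher and 1 lower, beside 2.66% and 3.04% of all genes, with a median of -0.052. NANOS3, an RNA-binding protein that keeps primordial germ cells alive, read 6.63, 6.96, 6.59 and 6.39 CPM in vehicle and 5.3, 1.94, 5.65 and 2.04 CPM in OPG. The groups did not overlap, and the OPG libraries split, passages 120 and 122 being far lower than 118 and 121. Its log2 fold change was -0.99 (SE 0.296, 95% interval -1.63 to -0.36, unadjusted p 0.00479) and -0.86 without vehicle 2 and 4. KIT, the stem cell factor receptor, read 84.1, 68, 89.1 and 61.3 CPM in vehicle and 90.2, 97.3, 88.2 and 84 CPM in OPG. Its difference of 0.24 was 0.06 without vehicle 2 and 4, the low vehicle libraries. With denosumab and RANKL, KIT averaged 92.7 and 90.7 CPM, near OPG (89.9) and above vehicle (75.6). NANOS3 averaged 4.9 and 5.3 CPM there, between vehicle (6.64) and OPG (3.73). SOX17 differed by -0.22 (-0.024 without vehicle 2 and 4), PRDM1 by -0.089 and TFAP2C by 0.0039.

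Of 22 proliferation genes 14 had a positive log2 fold change, and the median was 0.017. At an unadjusted p under 0.05, 1 was higher and 0 lower, beside 2.66% and 3.04% of all genes. MKI67, the proliferation antigen, read 431, 378, 473 and 332 CPM in vehicle and 494, 450, 481 and 531 CPM in OPG, higher in 4 of 4 pairs. Its log2 fold change was 0.26 (SE 0.091, unadjusted p 0.012), and 0.12 without vehicle 2 and 4. With denosumab and RANKL, MKI67 averaged 452 and 473 CPM, nearer to OPG (489) than to vehicle (404). TOP2A (0.13) and MCM6 (0.11) were smaller, and without those 2 libraries TOP2A was at -0.030 and MCM6 at 0.0082. Of 16 p53 targets and apoptosis genes, 0 passed an unadjusted p under 0.05 in either direction, and the median was -0.0087.

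Stress and metabolic lists held few differences, and their counts at an unadjusted p under 0.05 stand beside 2.66% of all genes higher and 3.04% lower. XBP1, a transcription factor of the unfolded protein response, read 68.9, 77, 84.5 and 74.5 CPM in vehicle and 82.7, 98.3, 101 and 88.5 CPM in OPG, higher in 4 of 4 pairs (log2 fold change 0.26, SE 0.0785, unadjusted p 0.00532) and 0.28 without vehicle 2 and 4. SLC7A11, the cystine transporter and an ATF4 target, stood at 19.7 to 23.6 CPM in vehicle and 24.2 to 32.2 CPM in OPG without overlap (0.39). These were the 2 higher of 18 stress response genes, with 0 lower and a median of 0.023. Hypoxia and glycolysis had 3 higher and 1 lower of 19, among them the glucose transporter SLC2A3 (0.15), the hexokinase HK2 (0.20) and, lower, ALDOA (-0.31), which was at 0.0036 without vehicle 2 and 4. Of 17 cholesterol synthesis genes 1 was lower, MVD (-0.39, and -0.095 without vehicle 2 and 4). Of 11 heat shock genes 1 was lower, the chaperonin HSPE1 (-0.16), with a median of 0.088.

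Interferon response genes gave 1 of 14 higher and 0 lower. For this and the next lists, 2.66% of all genes were higher and 3.04% lower at the same threshold. IFITM3, a membrane protein that restricts virus entry and marks germ cells, read 144, 141, 137 and 174 CPM in vehicle and 181, 160, 194 and 168 CPM in OPG, 3 of 4 pairs higher, with a log2 fold change of 0.21 (unadjusted p 0.0259) and 0.32 without vehicle 2 and 4. Of 13 immediate early genes 1 was higher and 1 lower, in JUN (0.54) and JUND (-0.57), both of them AP-1 subunits. JUND showed -0.21 without vehicle 2 and 4, and was called lower with no filter on low counts (adjusted p 0.00536 in edgeR's quasi-likelihood test). Replication-dependent histones had 0 higher and 1 lower of 7, H2BC5 (-0.49). Epithelial, mesenchymal and invasion genes had 0 of 18 in either direction, and the fibroblast marker THY1 (-0.40, and -0.25 without vehicle 2 and 4) was 1 of 5 tested in its list.

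**Figure D3:**
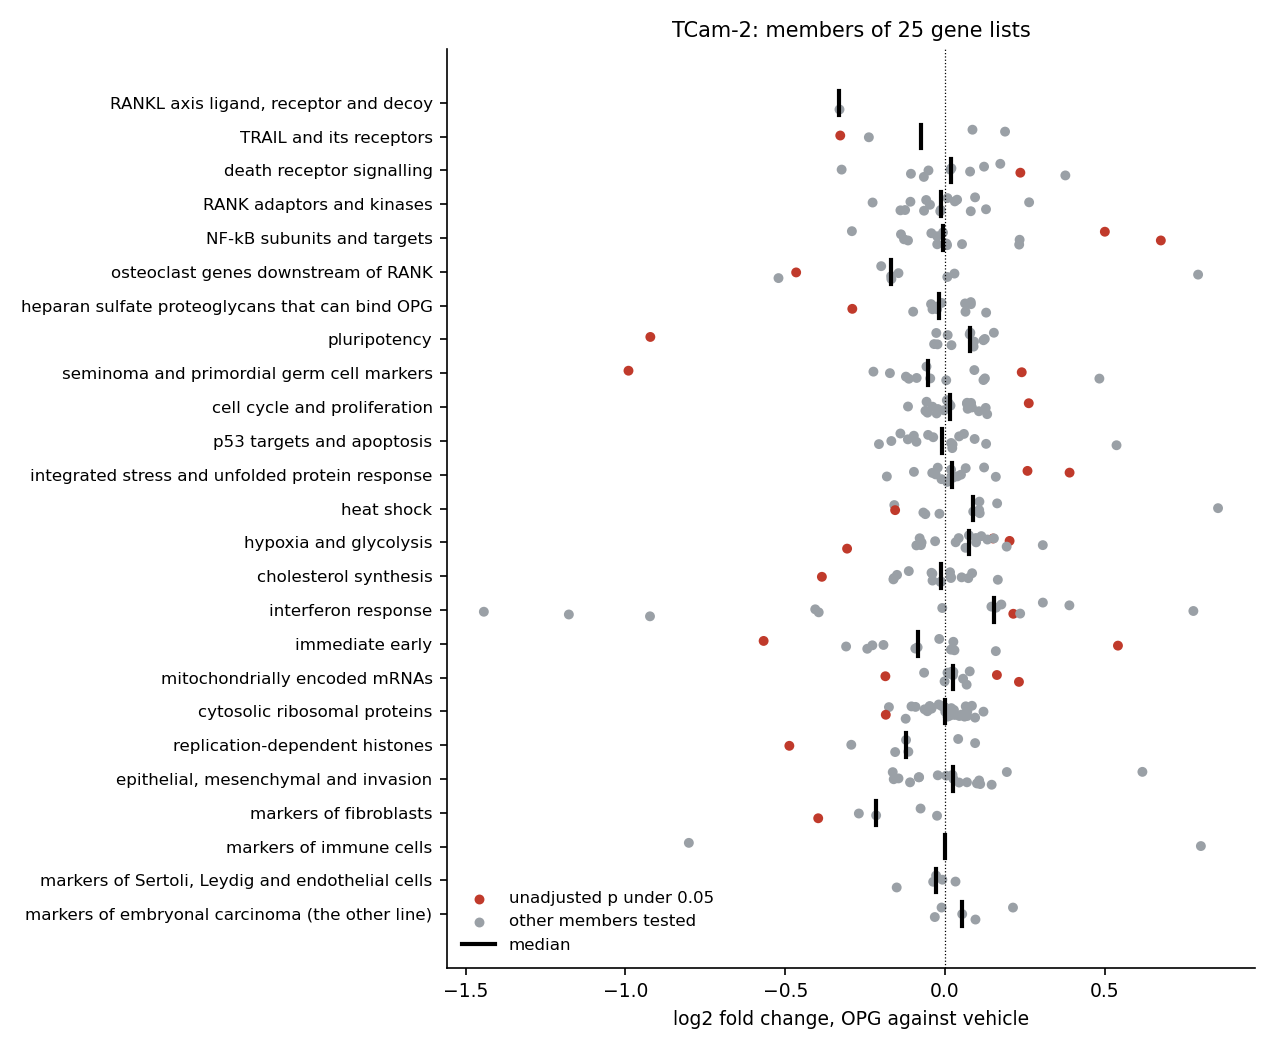
Log2 fold change of OPG against vehicle (x axis) for each tested member of the 25 gene lists, with red points at an unadjusted p under 0.05, grey points for the other members and a black bar at each list's median. Most points lie between -0.5 and 0.5, the medians stand near 0, and UTF1 and NANOS3 are the red points farthest to the left.

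The difference also went with gene class. Of 877 tested processed pseudogenes 80 were lower with OPG and 7 higher at an unadjusted p under 0.05 (9.12% and 0.798%). Over all genes tested, 3.04% were lower and 2.66% higher. The median log2 fold change of these pseudogenes was -0.38. Ribosomal protein pseudogenes (291 tested) had a median of -0.47, with 8.59% positive, while 83 ribosomal protein genes had a median of 0.0010. By library, the median deviation of the ribosomal protein pseudogenes on a log2 scale was 0.082, 0.29, 0.014 and 0.28 in vehicle and -0.18, -0.31, 0.088 and -0.22 in OPG. OPG replicate 3 sat within the vehicle range, and the other 3 OPG libraries were below all vehicle libraries. On the same scale, denosumab stood at -0.0098, 0.029, 0.021 and -0.16, and RANKL at -0.29, 0.085, -0.033 and 0.027. RANKL replicate 1 thus lay within the range of those 3 OPG libraries and denosumab replicate 4 just above it. The median was -0.29 without vehicle 2 and 4, and between -0.66 and -0.33 with each passage left out. These copies are counted from few reads each, and the medians over them share libraries.

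Protein-coding genes were put into 4 equal classes by the gene length given with the deposited counts, and the difference went with length. The shortest class had a median of -0.043, with 158 of 3305 genes lower (4.78%) and 32 higher (0.968%). The longest class had a median of 0.068, with 28 of 3304 lower (0.847%) and 217 higher (6.57%). These counts are at an unadjusted p under 0.05, where 3.04% of all genes were lower and 2.66% higher. By library, the longest class stood at 0.050, -0.12, 0.067 and -0.16 in vehicle and 0.10, 0.028, 0.049 and 0.020 in OPG. It stood at 0.081, -0.014, 0.12 and 0.097 with denosumab and at 0.084, -0.013, 0.14 and 0.10 with RANKL. Vehicle 2 and 4 were the 2 low libraries, and without them the longest class had a median of -0.0032 and the shortest 0.022. They were left out after these values were seen, so a smaller difference in long genes follows from the choice itself and is no test. The vehicle group, against which MKI67 and other long genes were higher with OPG, included these 2 libraries. The part of that pattern in single-gene results was not tested.

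**Figure D4:**
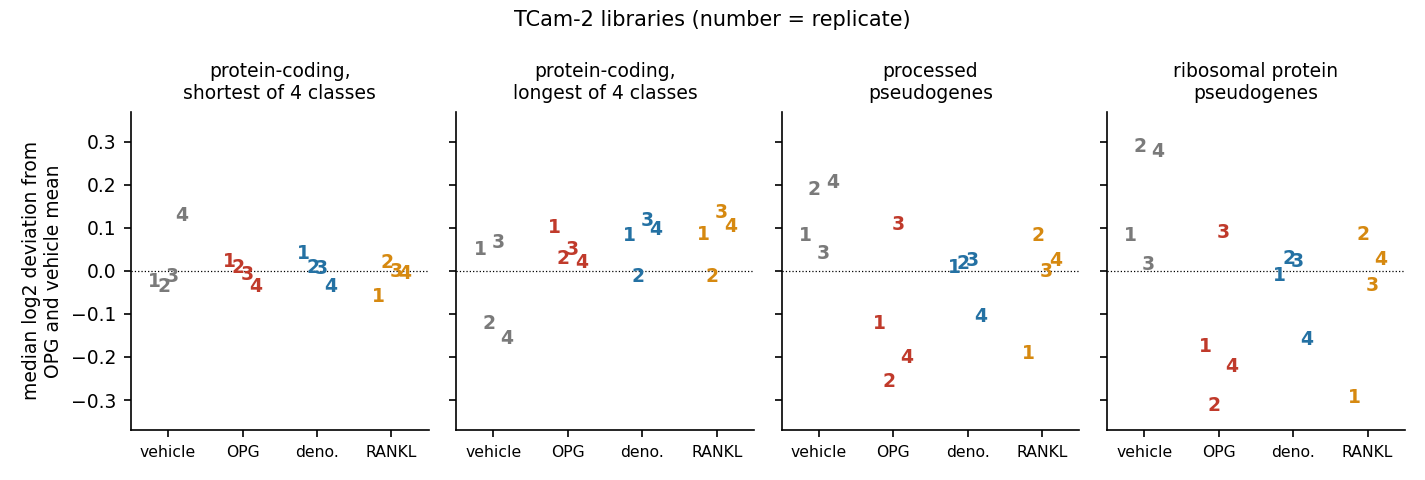
Median log2 deviation of each TCam-2 library from the mean of the 8 OPG and vehicle libraries (y axis) for 4 gene classes, with each library drawn as its replicate number and grouped by treatment. Vehicle 2 and 4 are the lowest libraries for long protein-coding genes, and OPG 1, 2 and 4 lie under all vehicle libraries for both pseudogene classes.

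OPG was also set directly against denosumab in the 8 TCam-2 libraries of these groups, because both bind RANKL. Of 16463 genes tested, 1 was called at an adjusted p under 0.05 (0.00607%), higher with OPG, and 0 were called lower. It was KRT18, the simple epithelial keratin, which read 3250, 4580, 4290 and 4120 CPM with OPG and 2800, 3670, 3580 and 3440 CPM with denosumab. All 4 pairs were higher, as for 7.83% of genes, and KRT18 rose by a log2 fold change of 0.28 (95% interval 0.22 to 0.35, adjusted p 0.00396 in edgeR's quasi-likelihood test). The groups overlapped across passages, and without the replicate block 0 genes were called, with a smallest adjusted p of 0.072. The call was also lost without replicate 3, without replicate 4 and when all 16 TCam-2 libraries, RANKL included, were fitted together. It was kept with DESeq2 (adjusted p 3.67e-07). In edgeR's quasi-likelihood test it was kept with other size factors (0.00381), at a mean of 5 CPM (0.00739) and with no filter (8.94e-11). It was also kept in that test without replicate 1 (0.0264) and without replicate 2 (0.0133). Against vehicle, KRT18 differed by 0.15 (unadjusted p 0.0662) and by 0.38 without vehicle 2 and 4, and its pairing keratin KRT8 differed from denosumab by 0.11 (adjusted p 0.529). KRT18 has many processed copies and adjoins KRT8, so its count is uncertain to that degree.

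At an unadjusted p under 0.05, 1621 genes (9.85%) differed between OPG and denosumab, 904 higher (5.49%) and 717 lower (4.36%). DESeq2 called 116 genes there (0.705%), 102 higher with OPG (0.620%) and 14 lower (0.0850%), and edgeR with no filter on low counts called 194 (0.595%). Of 30 cytosolic ribosomal protein genes 23 were higher at an unadjusted p under 0.05 and 0 lower, with a median of 0.12 beside -0.011 over all genes tested. RPS18, a ribosomal protein gene outside these 30 and chosen by its small p here, read 1010, 1130, 1020 and 1030 CPM with OPG. With denosumab it read 900, 931, 887 and 890 CPM, without overlap (2.23% of genes in that direction and 2.03% in the other). Its log2 fold change was 0.24 (adjusted p 0.0571 in edgeR, and called by DESeq2 at 0.000234). DESeq2 called 12 of the 30 higher and 0 lower. All 13 mitochondrial mRNAs were lower with OPG at an unadjusted p under 0.05, with a median of -0.16. MT-ND5, a complex I subunit, read 1240, 818, 887 and 1010 CPM with OPG and 1370, 944, 1190 and 1300 CPM with denosumab, lower in 4 of 4 pairs, as were 9.77% of genes (-0.26, adjusted p 0.0571 in edgeR, and called by DESeq2 at 0.000234). DESeq2 called 5 of the 13 lower and 0 higher. Mitochondrial mRNAs are cut from shared precursor transcripts, so the 13 do not count as separate observations.

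Against vehicle, 0 of these 30 ribosomal protein genes were higher and 1 lower at an unadjusted p under 0.05, with a median of 0.00089. The 13 mitochondrial mRNAs had 2 higher and 1 lower there, with a median of 0.025. Over all genes tested against vehicle, 2.66% were higher and 3.04% lower. Without vehicle 2 and 4, however, all 30 ribosomal protein genes were positive against vehicle, with a median of 0.11. In that fit 10 of them were higher at an unadjusted p under 0.05, beside 251 of all 16061 genes tested. The mitochondrial mRNAs then had 6 positive and 7 negative members and a median of -0.012. Against denosumab with each passage left out, between 16 and 23 ribosomal protein genes were higher and between 8 and 13 mitochondrial mRNAs lower. Of the 16106 to 16185 genes tested in these fits, between 593 and 913 were higher and between 556 and 902 lower. Of 19 hypoxia and glycolysis genes 10 were higher than with denosumab and 1 lower at an unadjusted p under 0.05, beside 5.49% and 4.36% of all genes. DESeq2 called 4 of the 19 higher and 0 lower. IFITM3 stood at 126 to 145 CPM with denosumab against 160 to 194 CPM with OPG, a gap without overlap (0.40, adjusted p 0.0571 in edgeR, and called by DESeq2 at 6.91e-05). With no filter on low counts edgeR called RPS18, MT-ND5, IFITM3 and OSMR too, with adjusted p of 0.000247, 1.17e-07, 3.59e-07 and 0.00524. OSMR was higher than with denosumab in 4 of 4 pairs (0.40, 95% interval 0.23 to 0.58, adjusted p 0.0828). The comparisons with vehicle and with denosumab share the OPG libraries.

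**Figure D5:**
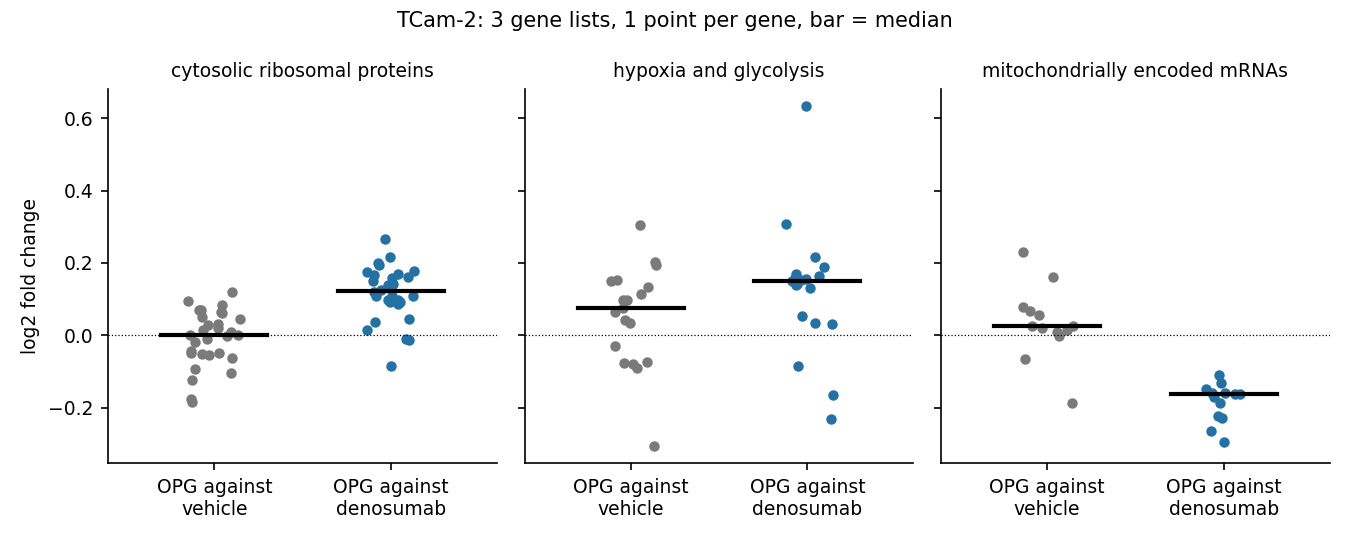
Log2 fold change (y axis) of each member of 3 gene lists in TCam-2, with grey points for OPG against vehicle, blue points for OPG against denosumab and a black bar at the median. Ribosomal protein genes have a median near 0 against vehicle and of 0.12 against denosumab, and all 13 mitochondrial mRNAs lie under 0 against denosumab.

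Whether OPG acted differently in the 2 lines was tested as an interaction over 16 libraries, and 0 of 19430 genes were called by edgeR or by DESeq2 (0%), with 1040 at an unadjusted p under 0.05 (5.35%, of which 2.44% had the larger value in TCam-2 and 2.91% the smaller). OSMR differed between OPG and vehicle by 0.51 in TCam-2 and by 0.22 in NTera2, and the difference between the lines was 0.30 (unadjusted p 0.118). PTN, a heparin-binding growth factor, had the smallest p of those with a larger value in TCam-2: it read 0.858 to 2.01 CPM in TCam-2 vehicle and 1.96 to 4.01 CPM in TCam-2 OPG (difference between lines 0.98, unadjusted p 0.000348). MT-RNR1 had -0.47 (unadjusted p 0.000358). With no filter on low counts 11 genes were called (0.0293%), 9 of them with the smaller value in TCam-2, RPS15P4 (adjusted p 0.0169 in edgeR's quasi-likelihood test) and MT-RNR1 (0.0242) among them. TNFRSF11A gave a difference of -0.31 (95% interval -1.02 to 0.41), which leaves effects of either sign within the interval. For other genes chosen by smallest p, ATCAY, ALS2CL, GAL3ST3 and TRIM22 on the higher side and CNTN2, ANKRD18CP and PAX8-AS1 on the lower, TCam-2 levels were 7.21 CPM or less in every OPG and vehicle library.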

How the data were processed

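Polyadenylated RNA was sequenced from stranded libraries as paired reads, per the labels' protocols. Per the submitters' processing notes, the authors' tools were bcl2fastq 2.20.0, STAR 2.7.9a and featureCounts 1.6.2, and the build was GRCh38 (hg38). The deposited values were raw read counts per gene, with gene length, start and end as other columns. Which annotation was counted, and with which strand option, is not given in the sources used here, so overlapping and antisense genes, such as MT-ATP8 and MT-ND4L with their neighbours, are uncertain, as are histone, IFITM and ribosomal protein genes with near-identical copies. Of 61541 genes, 61369 matched the gene name table by identifier.

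Counts were fitted by edgeR 4.0.16 under R 4.3.3, with filterByExpr, TMM factors and the robust quasi-likelihood test. P-values were adjusted by Benjamini-Hochberg over all genes tested, and those under 0.05 were called. The code was tested on simulated data. OPG against vehicle and OPG against denosumab each took 8 libraries, the interaction 16. The replicate number was a block because the labels give same-numbered libraries the same passage, which pairs them. Deviations from the group means of same-numbered libraries correlated at 0.36, -0.061, 0.019 and 0.11. CPM used TMM factors over all 32 libraries. SE is the log2 fold change divided by the square root of F. Class deviations used log2(CPM + 0.5). Intervals come from the quasi-likelihood fit and cover the spread left after the replicate block, with each gene's variance estimate drawing on all genes. A limit of 3 counts covers counting error only.

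The named genes were RANKL, RANK, OPG, TRAIL and the TRAIL receptors, 10 genes per direction by smallest unadjusted p with at least 5 CPM and 4 of 4 pairs of one sign, the 3 largest log2 fold changes per direction, up to 3 per list, and 5 per direction in the other comparisons. Some genes these rules chose are not reported here. The members, the 25 lists and these rules were chosen with earlier results of these data known, and gene families beside named genes were added after their values were seen. Alternatives were no replicate block, other size factors, DESeq2 1.42.0, other filters, other sets of libraries and each passage left out.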

Additional observations from a re-analysis of the deposited data

Results flagged for a closer look

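Of 226 groups of 4 libraries examined (TCam-2 vehicle or OPG, for named genes and shares of counts), 11 held a library far from the other 3, where chance gives about 1 in 20. In vehicle, NFKBIA stood at 54.3 CPM in replicate 1 under the others, ACP5 at 0.718 CPM in replicate 4 under the others, SLC2A3 at 1770 CPM in replicate 3 above them and RPS18 at 1100 CPM in replicate 4 above them. In OPG, NDUFA13 stood at 19.6 CPM and COL1A1 at 5.39 CPM in replicate 2, both under the others, and RPS18 at 1130 CPM in replicate 2 above them. OPG replicate 3 was low for TNFAIP2 (2.19 CPM) and MT-ATP8 (154 CPM). OPG replicate 4 was low for TERF1 (38.1 CPM) and high for ALS2CL (2.98 CPM).

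TNFRSF11B, the gene of OPG, had 6 counts over the 4 TCam-2 RANKL libraries and 0 in the vehicle, OPG and denosumab libraries. The RANKL libraries were in none of the main tests. They entered the fits of all 16 TCam-2 libraries and the values given beside OPG and vehicle.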

How the results depend on the processing

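OPG against vehicle kept 0 called genes without the replicate block (834 at an unadjusted p under 0.05), with other size factors, with DESeq2 and at a mean of 5 CPM. With no filter on low counts there were 23 called, all of them also tested with the filter, and 1502 at an unadjusted p under 0.05. Leaving out each passage gave between 0 and 1 called (SNHG25, lower, without passage 121) and between 414 and 1473 at an unadjusted p under 0.05. The latter count was 1820 with all 16 TCam-2 libraries and the block, 1442 without the block, and, chosen after seeing the data, 1463 with 12 libraries and 433 without vehicle 2 and 4, unpaired. OPG against denosumab had 0 called without the replicate block, 116 with DESeq2 (1005 at an unadjusted p under 0.05), 194 with no filter, 0 with all 16 libraries and between 0 and 2 with a passage left out. The interaction had 11 called and 1577 at an unadjusted p under 0.05 with no filter, and 509 of the latter at a mean of 5 CPM. The cause of these shifts was not tested.

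Of 97 named genes tested against vehicle, 82 kept their sign under every alternative. Without vehicle 2 and 4 the sign turned for TAB1 (0.014), TOP2A (-0.030), SDF2L1 (0.039), ALDOA (0.0036), IER2 (0.039), RPLP1 (0.083), RPL18 (0.017), H2AC6 (0.027), ITGA6 (-0.052), INHA (0.36) and TERF1 (0.0095). With each passage left out the values spanned 0 for H2AC6 (-0.34 to 0.031), COL1A1 (-0.37 to 0.033), CDH5 (-0.36 to 0.066), INHA (-0.25 to 0.16), AMH (-0.019 to 0.093), TNFRSF8 (-0.21 to 0.35) and, in the interaction, GAL3ST3 (-0.045 to 5.71). With 4 experiments per group, differences of several SE in abundant genes (OSMR at 0.51, SE 0.0993) did not pass against vehicle after adjustment over all genes. A gene that did not pass is therefore not shown to be unchanged. The size of a difference alone does not decide this, since KRT18 passed against denosumab at 0.28 (SE 0.0306).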

Other observations

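Genes of the bone morphogenetic protein pathway were looked at after their values were seen. ID1, a target gene that inhibits differentiation, read 392, 449, 307 and 555 CPM in TCam-2 vehicle and 373, 282, 294 and 390 CPM in OPG, lower in each pair with overlapping groups (log2 fold change -0.35, unadjusted p 0.00252). Without vehicle 2 and 4 it was -0.058. SMAD6, an inhibitor of the pathway, read 14.5, 13, 11.9 and 15.6 CPM in vehicle and 11.8, 4.08, 9.66 and 9.46 CPM in OPG, without overlap (-0.74, unadjusted p 0.00372), and was at -0.60 without those 2 libraries. With denosumab and RANKL, SMAD6 averaged 10.9 and 9.3 CPM, nearer to OPG (8.76) than to vehicle (13.8). ID1 averaged 436 and 395 CPM there, nearer to vehicle (426) than to OPG (335). The related genes ID2 (-0.10), ID3 (-0.12), ID4 (-0.057), SMAD7 (-0.12), BAMBI (-0.0030), BMP7 (-0.094) and SMAD9 (-0.39) had unadjusted p over 0.15. The ligand gene BMP4 showed -0.40 (unadjusted p 0.0889 in edgeR's quasi-likelihood test), and -0.031 without vehicle 2 and 4. None of these genes passed the adjusted test with the filter on low counts, and without it ID1 and SMAD6 were called lower (adjusted p 0.00536 and 0.0478 in edgeR's quasi-likelihood test).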
